A study of Mus musculus with 6 samples.

Results

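Transcripts of the oocyte were followed in preparations of mouse ovarian granulosa cells, the somatic cells that line the follicle around the oocyte. The set was a list of 37 genes known for expression in oocytes or the germ line, found on the arrays by symbol. It held growth factors, egg coat proteins, maternal-effect proteins, transcription factors and proteins of meiosis and messenger RNA control. Of the 37, 33 had a probe set that named only that gene, out of 18194 genes with such a probe set in the table. Of these 33, 30 had a mean log2 intensity of at least 6 (intensity 64) over the arrays, the level taken as the floor, and all 30 were at 64 or more on every array. Figla, Pou5f1 and Ddx4 were under the floor. Oas1d and Oog1 were read only by probe sets that name several genes, and Nlrp2 and Npm2 were not analysed here.

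The study set wild type mice beside mice with a conditional knockout of ERK1/2, the kinases that carry the ovulatory signal inside granulosa cells. All mice were immature, at 23 days of age, and carried follicles grown to the preovulatory stage by an injection of equine chorionic gonadotropin (5 IU) given 48 h before. The ovulatory surge of luteinizing hormone was mimicked with 5 IU of human chorionic gonadotropin (hCG). Preparations were made before this second injection (called 0 h), 2.5 h after it and 4 h after it. There was 1 array for each genotype and time, 6 arrays in all, and the labels name neither replicates, nor how many mice gave the RNA, nor the Cre line that makes the knockout conditional. A difference between a pair of arrays therefore has no replicate error and no p-value.

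An oocyte makes and stores large amounts of a particular set of messenger RNAs while its follicle grows, and uses them during meiosis and the first divisions of the embryo. Granulosa cells do not make most of these transcripts, so their level in a granulosa preparation is used as a reading of the oocyte RNA it carries. Oocytes are enclosed by cumulus cells inside the follicle and can be released together with the granulosa cells when follicles are opened. In bulk RNA, fewer oocytes and less RNA per oocyte cannot be told apart.

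Promoter sequence from RefSeq (build GRCm38.p6) was available for 25 of the 33 measured members, as the 250 bases before each transcript start. The windows were searched for the E-box CANNTG, the motif bound by FIGLA, the oocyte factor known to switch on the zona pellucida genes. The motif reads the same on both strands. It lay in at least 1 window of 22 of the 25 members (88.0%) and of 69.3% of 27025 mouse genes. Of the 25 members, 5 had more than 1 window. The motif TATAAA, on either strand, lay in 5 of 25 and in 14.3% of all genes. TAATTA and TAATTG, letters read by homeodomain proteins such as LHX8 and NOBOX, lay in 2 of 25 each (8.0%), against 5.65% and 8.3% of all genes. A match is a description of the letters and not evidence of binding. To show such windows, 4 of them follow, 5′ to 3′ on the strand of the gene, with E-boxes in capitals. They were picked after values were seen, 1 each for an egg coat protein, a secreted protein, a growth factor and a protein of the egg's cytoplasmic lattices.
Zp3 (chr5:135979855-135980104, plus strand): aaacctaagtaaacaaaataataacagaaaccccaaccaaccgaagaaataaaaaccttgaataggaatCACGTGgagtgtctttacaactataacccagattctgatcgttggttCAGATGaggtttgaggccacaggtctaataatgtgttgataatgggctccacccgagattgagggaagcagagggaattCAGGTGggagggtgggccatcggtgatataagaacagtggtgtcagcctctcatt
Oosp1 (chr19:11691052-11691301, minus strand): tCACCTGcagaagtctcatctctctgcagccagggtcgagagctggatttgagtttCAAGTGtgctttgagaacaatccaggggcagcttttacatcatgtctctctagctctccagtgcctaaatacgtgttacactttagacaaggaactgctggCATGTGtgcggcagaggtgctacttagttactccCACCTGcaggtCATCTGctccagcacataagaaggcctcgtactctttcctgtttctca
Bmp15 (chrX:6320725-6320974, minus strand): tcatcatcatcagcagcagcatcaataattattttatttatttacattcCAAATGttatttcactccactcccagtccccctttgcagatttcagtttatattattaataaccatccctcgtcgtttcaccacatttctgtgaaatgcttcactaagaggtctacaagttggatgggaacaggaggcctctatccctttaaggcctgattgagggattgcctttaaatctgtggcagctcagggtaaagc
Padi6 (chr4:140742644-140742893, minus strand): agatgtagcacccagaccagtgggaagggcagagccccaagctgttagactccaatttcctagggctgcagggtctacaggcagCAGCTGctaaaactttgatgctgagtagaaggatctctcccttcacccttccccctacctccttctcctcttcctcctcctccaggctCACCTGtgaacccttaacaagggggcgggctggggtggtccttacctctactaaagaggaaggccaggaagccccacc
The Zp3 window held 3 E-boxes, beginning at -181, -134 and -55 from the start, and the Oosp1 window held 5. The Bmp15 window had a single one at -201, and that of Padi6 had 2, at -166 and -78. All 4 genes were brightest on the knockout 0 h array, then on wild type 0 h and knockout 2.5 h, and dimmest on wild type 2.5 h.

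Across the set, the knockout array at 0 h stood highest and the 4 arrays after hCG stood low. The summed intensity of the 33 members was 39858 on the wild type array at 0 h, 24347 at 2.5 h and 25730 at 4 h. On the knockout arrays it was 72904 at 0 h, 30956 at 2.5 h and 27047 at 4 h. As a share of the summed intensity of all genes, this ran from 0.208% on the knockout 4 h array to 0.588% on the knockout 0 h array. Of 33 members, 32 were brightest on the knockout 0 h array, with Figla the exception, and 29 had the wild type 0 h array second. In 30 of them both 0 h arrays lay above all 4 arrays after hCG. The lowest array was wild type 2.5 h for 20 members, knockout 4 h for 8 and wild type 4 h for 5.

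**Figure D1:**
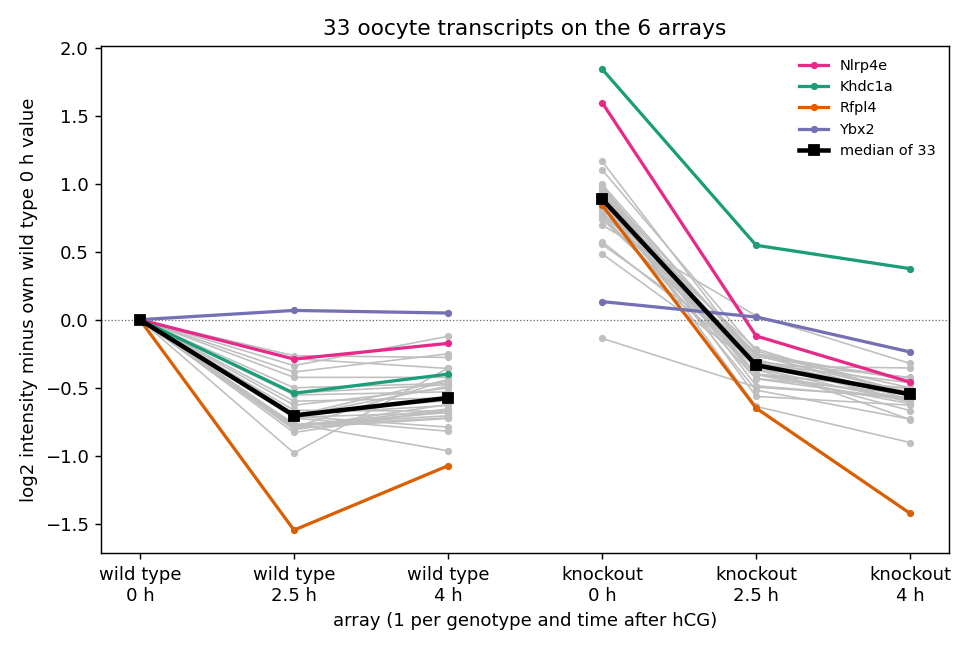
Log2 intensity of each of the 33 oocyte transcripts, minus its own value on the wild type 0 h array, on the 6 arrays (wild type left, knockout right). Thin grey lines are single genes, coloured lines are Nlrp4e, Khdc1a, Rfpl4 and Ybx2, and the black line is the median of 33. The median is 0.89 above wild type 0 h on the knockout 0 h array and below it on all 4 arrays after hCG.

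At 0 h, before any hCG, 32 of 33 members were higher in the knockout than in the wild type preparation. The median log2 difference was 0.89, or 1.85-fold, with a standard deviation over the genes of 0.34. The median of the 11153 genes over the floor was -0.03. The 13 members with a mean intensity of 1024 or more lay close together, from 0.74 to 0.98, and the 17 between 64 and 1024 ran from 0.13 to 1.84. By the rule of size used here (at least 2-fold, with the brighter array at 64 or more), 4 members were higher: Khdc1a, Nlrp4e, Bmp15 and Dppa3. The same rule took 0.506% of all 18194 genes, 92 in number. With cyclic loess scaling the count was 7 members, now with Nlrp5 (1.02), Nlrp4f (1.03) and Cpeb1 (1.02, log2). The share of all genes was not counted under that scaling. With the mean of all its probe sets Bmp15 was 0.70 higher (log2) and no longer counted.

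At 2.5 h after hCG the distance between genotypes was smaller. The median over members was 0.32 (1.25-fold), with 31 of 33 above 0, beside a median of 0.14 over the genes above the floor. Only Khdc1a passed the rule of size, which took 0.929% of all genes. Cyclic loess brought the gene median to 0.01 and the members' median to 0.18, so members stood 0.18 above other genes under either scaling. At 4 h the members' median was 0.01, with 17 higher and 16 lower in the knockout, while the genes above the floor had a median of 0.20. No member passed the rule, which took 3.14% of all genes. After cyclic loess 27 of 33 members were lower in the knockout at 4 h, with a median of -0.14 and a gene median of 0.03.

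**Figure D2:**
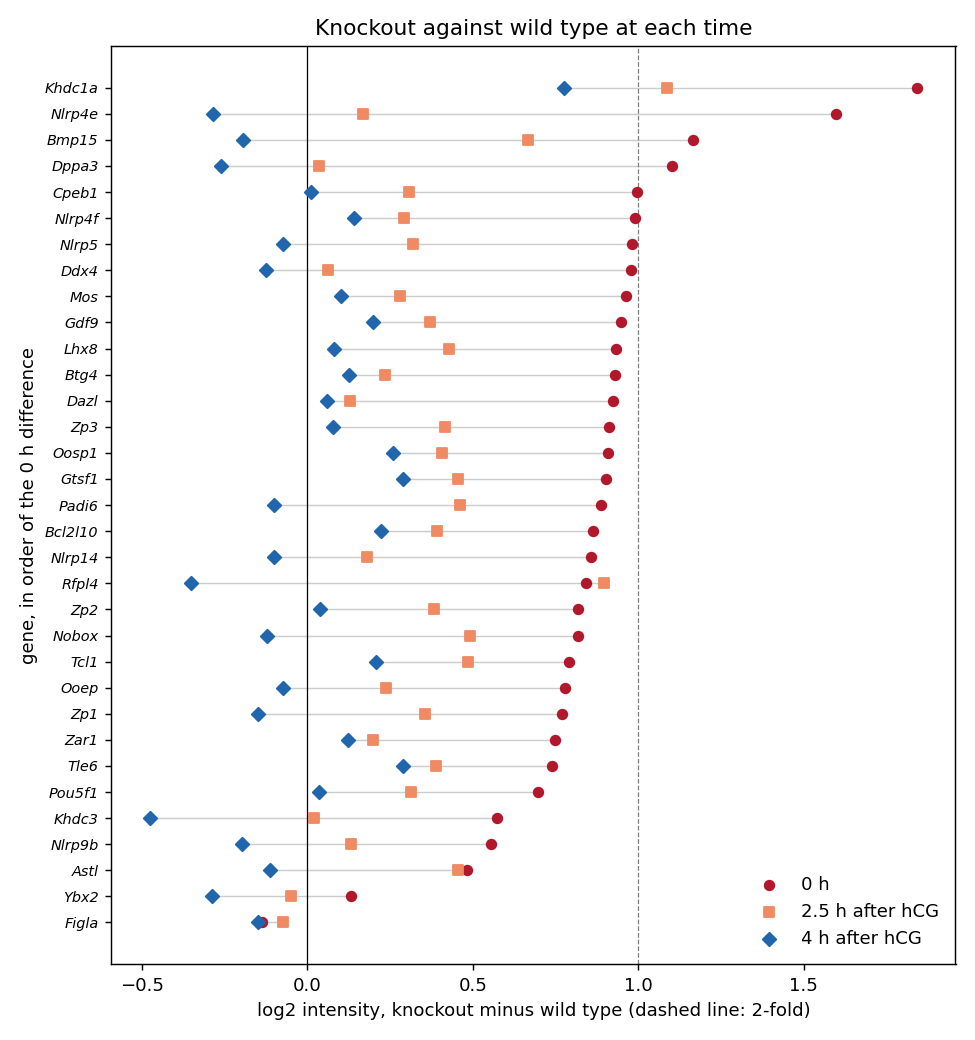
Log2 difference, knockout minus wild type, for each of the 33 genes at 0 h (red circles), 2.5 h (orange squares) and 4 h (blue diamonds) after hCG, in order of the 0 h value. At 0 h 32 genes lie to the right of 0, while at 4 h 17 lie to the right and 16 to the left.

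Each genotype was lower after hCG than at 0 h, and the distance was greater in the knockout. In wild type the members' median was -0.70 at 2.5 h and -0.58 at 4 h, with 32 of 33 below 0 at each time. The corresponding medians of the genes above the floor were -0.22 and -0.21, which cyclic loess brought to -0.05 and -0.04 (members -0.51 and -0.43). Rfpl4 alone was at least 2-fold lower, at both times, where 0.649% and 5.74% of all genes were. At 4 h its call was lost with cyclic loess.

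In the knockout all 33 members were lower after hCG. The median was -1.24 at 2.5 h (2.36-fold) and -1.44 at 4 h (2.71-fold), against gene medians of -0.02 and 0.02. At least 2-fold lower were 27 members at 2.5 h and 31 at 4 h, where the rule took 2.35% and 3.03% of all genes. Ybx2 and Figla were the 2 members outside that count at 4 h. These values rest on the same knockout 0 h array as the 0 h genotype difference. Set against the wild type 0 h array instead, the knockout medians were -0.33 and -0.55. The wild type medians set against the knockout 0 h array were -1.60 and -1.49.

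Between 2.5 h and 4 h the genotypes differed in sign. In wild type 25 members were slightly higher at 4 h and 7 lower, with a median of 0.07, and none was 2-fold lower (1.2% of all genes). All 33 were lower at 4 h in the knockout, with a median of -0.21, and again none reached 2-fold (0.33% of all genes). The size of these steps is small beside the 0 h difference.

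**Figure D3:**
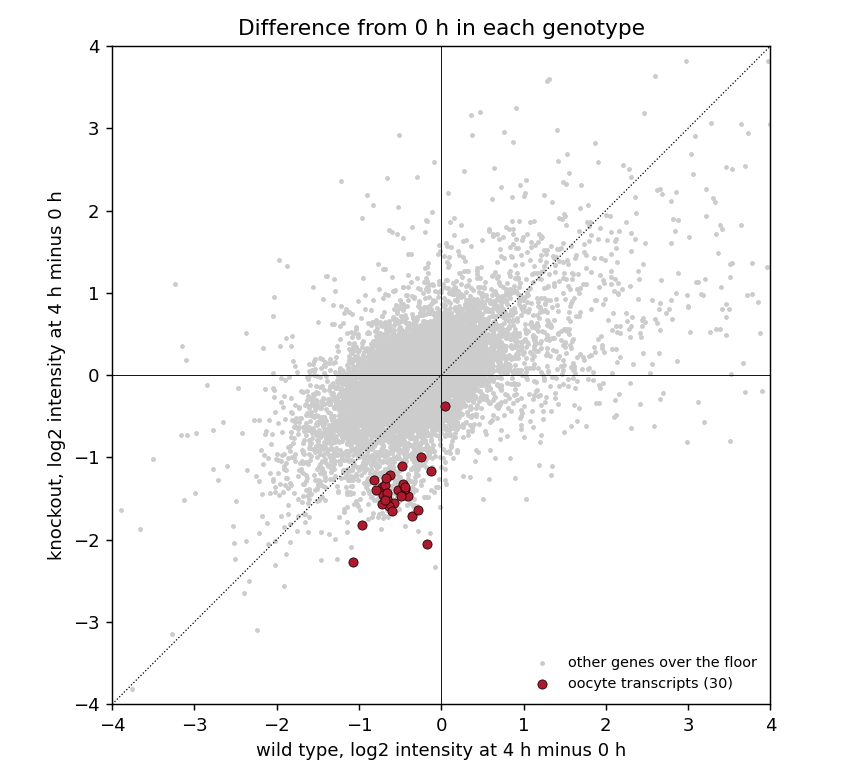
Log2 difference between 4 h and 0 h in wild type (horizontal) and in knockout (vertical) for the genes over the floor (grey) and the 30 oocyte transcripts over it (red), with axes shown from -4 to 4. The dotted line marks an equal difference, and every one of the 30 lies below it.

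The tests available drew on all 6 arrays, with limma (additive model of genotype and time, Benjamini-Hochberg over 11153 genes). They left 2 residual degrees of freedom, which measure how a difference varies between times or genotypes and not between animals. For hCG (mean of 2.5 h and 4 h minus 0 h, over both genotypes), 21 of the 30 members over the floor were called lower. A call is a limma adjusted p under 0.05, which 6.73% of all genes tested passed in that direction. The median change over the 30 was -0.996 on the log2 scale, and the highest was -0.09. At an unadjusted p under 0.05 in limma, 29 members and 2372 of the 11153 genes were lower. The adjusted p of the 30 ran from 0.0266 to 0.73. The call depends on the setting. None of the 30 was called after cyclic loess (lowest adjusted p 0.057 in limma). There were 13 called when probe sets of a gene were averaged, and 1, Tle6, with no floor. Genes called lower in these settings numbered 324 of 11226, 414 of 9978 and 243 of 18194. For genotype over the 3 times, 0 of 30 members were called by limma, 9 were higher at an unadjusted p under 0.05, and the lowest adjusted p was 0.122 (Khdc1a). At the same unadjusted p, 1199 of the 11153 genes were higher and 741 lower. A single gene among all those tested was called higher in the knockout, 0.00897%. Leaving out the 4 h pair, with fewer residual degrees of freedom, gave 3 members higher in the knockout by limma, beside 63 of the 11153 genes. The members were Khdc1a (limma adjusted p = 0.00141), Bmp15 (0.0274) and Rfpl4 (0.0287). Fits without the 0 h or the 2.5 h pair called 0 members, beside 193 and 3 genes higher in the knockout.

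Whether hCG acted differently in the genotypes was tested with a limma model in which 2.5 h and 4 h shared a cell. The knockout response was lower than that of wild type by a median of 0.50 (log2) at 2.5 h and 0.85 at 4 h over the 33 members, while the genes over the floor had medians of 0.15 and 0.22 the other way. At both times 31 of 33 members had the lower value in the knockout. None of the 30 members passed the interaction test in limma (lowest adjusted p 0.432, Nlrp4e), although 15 had an unadjusted p under 0.05. No gene of the 11153 passed it either, with 642 higher and 373 lower at an unadjusted p under 0.05.

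The oocyte's growth factors followed the common order. Gdf9, a secreted signal of the TGF-beta family that acts on the surrounding cumulus and granulosa cells, measured 3500, 2053 and 2145 in wild type at 0, 2.5 and 4 h and 6752, 2655 and 2463 in the knockout. It was 1.93-fold higher in the knockout at 0 h and 1.15-fold at 4 h, and its hCG change in the additive limma fit was -1.07 ± 0.19 (SE; adjusted p = 0.031). Bmp15, its X-linked partner, measured 215, 109 and 168 in wild type and 482, 173 and 147 in the knockout. The knockout 0 h array was thus 2.24-fold above wild type, and at 4 h the wild type array was the higher. A second Bmp15 probe set gave 167 and 290 at 0 h, a smaller difference of 0.80 (log2), and at 4 h the knockout was the higher there, at 138 against 102. The dimmest one stayed between 17 and 30 throughout.

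Egg coat and secreted proteins were all higher in the knockout at 0 h, 5 of 5, and all lower after hCG in both genotypes. Zp1, Zp2 and Zp3 encode the zona pellucida, the coat that sperm bind. Zp1 measured 600, 347 and 441 in wild type and 1024, 444 and 398 in the knockout. For Zp2 the values were 2196, 1272 and 1394, then 3872, 1660 and 1431. Zp3 gave 2417, 1413 and 1506, then 4551, 1885 and 1589. The 3 differed by 0.77, 0.82 and 0.91 (log2) between genotypes at 0 h, and each fell after hCG in limma (-0.95 to -1.06, adjusted p from 0.0334 to 0.0455). Oosp1, which encodes an oocyte-secreted protein, measured 2424, 1475 and 1511 in wild type and 4547, 1956 and 1807 in the knockout. Astl encodes ovastacin, the cortical granule protease that cleaves ZP2 after fertilization, and measured 582, 336 and 378, then 814, 461 and 350. Its 0 h difference of 0.48 (log2) was close to that at 2.5 h, 0.46.

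Maternal-effect proteins of the subcortical complex and the cytoplasmic lattices, which the early embryo needs, came next. Nlrp5 (MATER) measured 1316, 817 and 871 in wild type and 2598, 1020 and 828 in the knockout. Its partner Ooep gave 2088, 1476 and 1509, then 3585, 1740 and 1436. In Tle6, another subunit, the values were 2171, 1315 and 1230, then 3624, 1722 and 1502. All 3 had both 0 h arrays above every later one. Tle6 had the lowest adjusted p of the set for hCG in limma (-0.97 ± 0.16 SE, adjusted p = 0.0266), while Ooep (0.0557) did not pass. Padi6, a peptidylarginine deiminase of the lattices, measured 2405, 1471 and 1714, then 4447, 2026 and 1600. Khdc3 (FILIA), a KH-domain subunit, measured 283, 224 and 260 in wild type and 421, 227 and 187 in the knockout. At 4 h Khdc3 was 1.39-fold lower in the knockout, the greatest such distance among the 33. Nlrp4f, an Nlrp protein tied to the same complex, gave 1141, 665 and 692, then 2266, 815 and 763, a 1.99-fold difference at 0 h.

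Among the other Nlrp genes of the set, Nlrp4e and Nlrp9b have near-identical copies, so their probe sets may read more than 1 gene. Nlrp14 measured 3607, 2225 and 2330 in wild type and 6538, 2520 and 2173 in the knockout, like the rest of the set. Nlrp4e was at 88, 72 and 78 in wild type, near the floor, and at 266, 81 and 64 in the knockout. Nlrp9b gave 94, 72 and 79, then 138, 79 and 69. Nlrp4e thus stood 3.02-fold higher in the knockout at 0 h on 1 array only, and its other 5 values lay between 64 and 88. Without the members of such families (Nlrp4e, Nlrp4f, Nlrp9b and Khdc1a) the 0 h median between genotypes was 0.86.

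Among transcription factors of the oocyte, 2 of 4 were over the floor. Nobox, a homeobox factor of early follicles, measured 422, 259 and 311 in wild type and 744, 364 and 286 in the knockout. Lhx8, a LIM-homeobox factor, gave 302, 170 and 191, then 576, 229 and 202, and fell after hCG in limma (-1.08 ± 0.20 SE, adjusted p = 0.033). Figla went against the set at 0 h with 55, 41 and 41 in wild type and 50, 39 and 37 in the knockout, all under 64. Pou5f1 (OCT4) lay between 39 and 81 and was highest on the knockout 0 h array.

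Genes of meiosis and messenger RNA control shared the pattern, with 1 exception. Mos, the kinase that activates the ERK pathway in the maturing oocyte, measured 634, 432 and 439 in wild type and 1237, 525 and 471 in the knockout. Btg4, an adaptor for removal of poly(A) tails, gave 1594, 1005 and 1000, then 3037, 1182 and 1091. Zar1, which binds stored messenger RNA, gave 1986, 1367 and 1426, then 3340, 1568 and 1553. The 3 were 1.95-, 1.91- and 1.68-fold higher in the knockout at 0 h. Cpeb1, which controls the polyadenylation of stored messages, measured 365, 241 and 245, then 728, 298 and 247, just under 2-fold at 0 h. Dazl, an RNA-binding germ cell protein, gave 546, 321 and 280, then 1036, 351 and 292, with the second largest hCG change in limma (-1.28 ± 0.22 SE, adjusted p = 0.0277). Gtsf1, a small zinc finger protein of the piRNA pathway, gave 878, 537 and 508, then 1640, 737 and 621. The second probe sets of Dazl and Gtsf1 differed by 0.84 and 0.93 (log2) between genotypes at 0 h, close to the first (0.92 and 0.90). Ddx4, the germ cell helicase VASA, was between 22 and 67 and highest on the knockout 0 h array. Ybx2 (MSY2), an abundant RNA-binding protein of the oocyte, was the exception with 145, 152 and 150 in wild type and 159, 147 and 123 in the knockout. Its hCG change was -0.09 ± 0.15 (SE; limma adjusted p = 0.73), the smallest of the 30.

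The remaining members were all higher in the knockout at 0 h. Dppa3 (STELLA), which protects the methylation state of the maternal genome, measured 680, 566 and 561 in wild type and 1459, 580 and 468 in the knockout. Tcl1, a co-activator of AKT, gave 2056, 1175 and 1291, then 3560, 1647 and 1491. Bcl2l10, of the BCL2 family, gave 3968, 2284 and 2399, then 7213, 2998 and 2799. Tcl1 and Bcl2l10 fell after hCG in limma (adjusted p = 0.0298 and 0.0282), and Dppa3 did not pass (0.104). Rfpl4, a RING finger protein of oocytes, measured 888, 304 and 422 in wild type and 1593, 566 and 331 in the knockout. It had the largest hCG change of the set, -1.59 ± 0.28 (SE; limma adjusted p = 0.03), and was 1.86-fold higher in the knockout at 2.5 h but 1.28-fold lower at 4 h. Khdc1a, of a KH-domain gene family with close copies, measured 128, 88 and 97 in wild type and 459, 187 and 166 in the knockout. Khdc1a was the one member at least 1.5-fold higher in the knockout at all 3 times, at 3.59-, 2.13- and 1.71-fold.

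**Figure D4:**
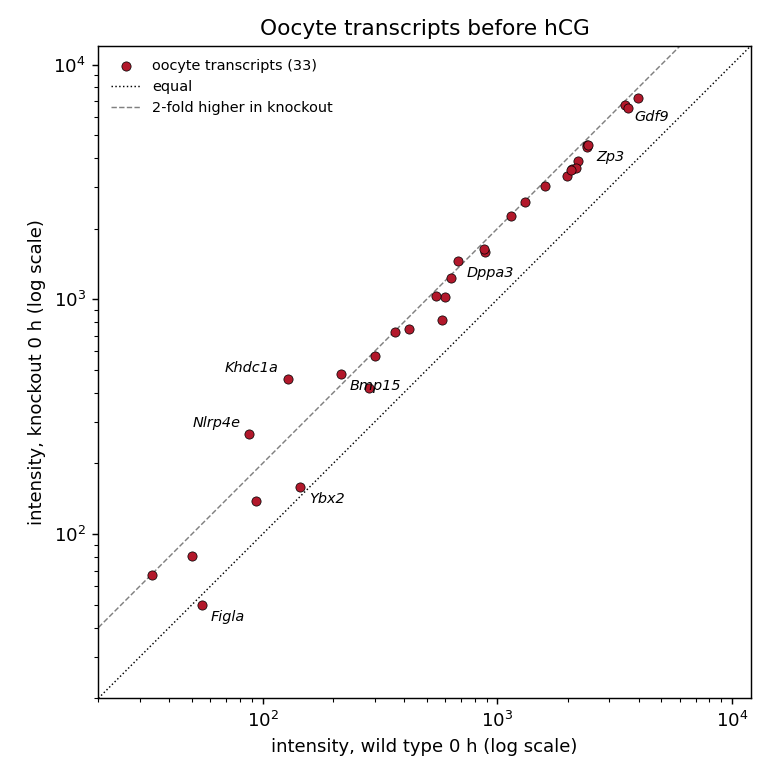
Intensity of the 33 oocyte transcripts on the knockout 0 h array (vertical) against the wild type 0 h array (horizontal), both on log scales, with lines of equal value (dotted) and of 2-fold higher value in the knockout (dashed). Most genes lie just under the dashed line; Khdc1a, Nlrp4e, Bmp15 and Dppa3 lie above it, and Ybx2 and Figla near the dotted line.

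A second list of oocyte genes, outside the 37, was read the same way. Of 54 symbols, 46 had a probe set and 33 of them were over the floor. At 0 h 38 of the 46 were higher in the knockout, with a median of 0.61 (log2) and 6 at least 2-fold, among them H1f8 (241 and 557), the linker histone of the oocyte, and Nlrp4a (689 and 1573). At 2.5 h and 4 h the medians between genotypes were 0.24 and 0.04. In the knockout 19 and 23 of the 46 were at least 2-fold lower at 2.5 h and 4 h than at 0 h, and in wild type none was. The shares of all genes past the same rule were 0.506% at 0 h between genotypes, and 2.35% and 3.03% in the knockout at 2.5 h and 4 h. Over both genotypes 16 of the 33 were called lower after hCG by limma, beside 6.73% of all genes. As with the members, this depended on the setting. After cyclic loess 1 was called, 9 when probe sets were averaged and 1 with no floor. In those settings 324 of 11226, 414 of 9978 and 243 of 18194 genes were called lower. Members and second list together held 10 of the 92 genes at least 2-fold higher in the knockout at 0 h (4 and 6), and 54 of the 551 at least 2-fold lower in the knockout at 4 h (31 and 23). At 0 h 7 of the 46 were lower in the knockout, namely Tcl1b3 (3766 in wild type and 3578 in the knockout), Cd9 (972 and 957), Sohlh1, Obox3, Obox6, Rbm46 and Mov10l1, of which the last 5 were under the floor.

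Outside the list, the genes whose log2 values over the 6 arrays lay closest to the members' median profile were Depdc7, Nlrp9c, E330034G19Rik, Rhpn2, Obox5, Nlrp4a, Esrp1, Bmp5, Trim75 and Slc25a31, with Pearson r from 0.9972 to 0.9986. They were taken from 3041 genes over the floor with a range of at least 1 (log2), of which 196 had r of at least 0.95. Depdc7 measured 478, 284 and 303 in wild type and 841, 375 and 314 in the knockout. Over 6 arrays that share a single high one, such an r is a description. Of 25 second-list genes in that comparison, 22 had r of at least 0.95. Among the members 29 of 33 had such an r with the median they help to set, and the lowest were Ybx2 (0.46), Figla (0.71), Khdc1a (0.87) and Khdc3 (0.91).

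The other cell types of the ovary were read through marker lists. Markers of preovulatory granulosa cells, 8 of 8 measured over the floor, had a summed intensity of 110966 in wild type and 106007 in the knockout at 0 h. This sum did not share the sign of the members' difference, and 6 of the 8 markers were lower in the knockout. Fshr (4454 in wild type and 5345 in the knockout) and Nr5a2 (10104 and 11386) were higher. After hCG the granulosa sum was 86881 and 75250 in wild type, and 129918 and 125880 in the knockout. Markers of cumulus and small follicle granulosa cells summed to 8060 and 7132 at 0 h, and Slc38a3, an amino acid transporter of cumulus cells, was at 1344 and 1284. Theca and stroma markers summed to 15242 and 13362 at 0 h, and to 21589 and 23130 in the knockout after hCG, where Cyp17a1, the androgen-making enzyme, went from 1845 to 14251 and 13997. Without Cyp17a1 the other 6 markers summed to 11517 in the knockout at 0 h and to 7338 and 9133 after hCG. The wild type sums were 13248, 9337 and 8726, so both genotypes were lower after hCG. In the knockout Ptch1 went from 3308 to 1060 and 1540. Col1a2 gave 3459, 2765 and 3207 there, and Acta2 3867, 2861 and 3619. Surface epithelium markers summed to 2489 and 2640 at 0 h, and differed in direction. Krt7, an epithelial keratin (75 in wild type and 220 in the knockout), Krt19 (171 and 323) and Upk1b (194 and 299) were higher in the knockout. Krt8 (849 and 873) was close, and Krt18 (139 and 124) and Upk3b (1061 and 801) were lower. The ranges over the 6 arrays were 616 to 1100 for endothelium, 1063 to 1564 for macrophages and leukocytes and 211 to 557 for red blood cells. Of the red blood cell markers Alas2 ran from 193 to 536, while Hba-a1 stayed between 18 and 21. Of the endothelial markers Kdr, the brightest, ran from 205 to 457, while Pecam1 stayed between 27 and 32. The part of these lists in the members' differences was not tested.

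**Figure D5:**
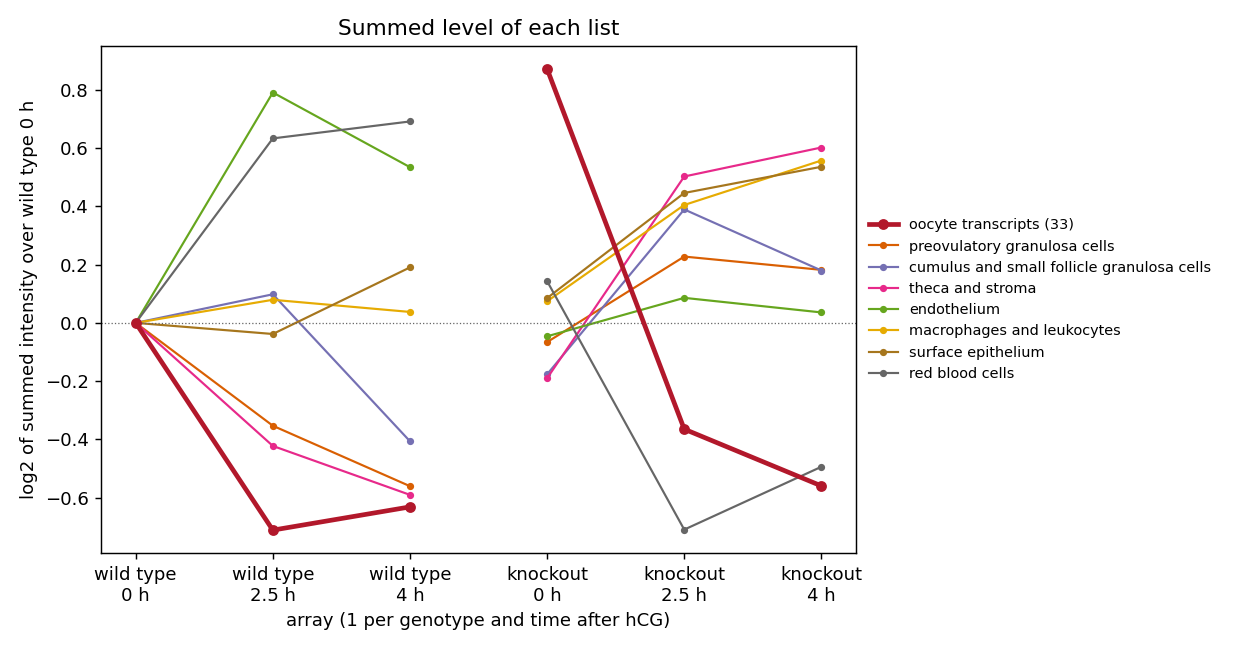
Log2 of the summed intensity of each list over its value on the wild type 0 h array, for the 33 oocyte transcripts (thick red) and the marker lists (thin lines), on the 6 arrays. At 0 h the oocyte sum is 1.83-fold higher in the knockout, and no marker list moves by as much between the 0 h arrays.

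RNA quality readings moved in part with the members. The ratio of the 3′ to the 5′ Gapdh control probe sets was 5.21 on the knockout 0 h array, 4.79 on the wild type 0 h array and from 3.56 to 4.24 on the others. For actin the ratio ran from 2.56 to 3.37, highest on the knockout 4 h array. Probe sets at 64 or more made up 47.15% to 47.6% of each array. RMA matches the distribution of the arrays, so this share cannot tell their RNA quality apart. The part of RNA quality in the 0 h difference was not tested, and the transcripts of the targeted kinases were not analysed here, which leaves the genotypes as the labels give them.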

How the data were processed

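Granulosa cell RNA from 6 preparations was hybridised to Affymetrix arrays, from 5 ug of total RNA each, per the labels' protocols. The deposited values are intensities made with RMA in affy, per the submitters' processing notes, as whole numbers between 9 and 59425, linear, with a median of 54 or 55 per array. Versions are not given in the sources used here. RMA matches the distribution of the arrays, which hides a change in total RNA, and intensities of different probe sets are not on 1 scale.

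From these, log2 was taken, and each gene was read by the probe set of highest mean log2 among those with its symbol alone (34958 of 45101 probe sets, platform annotation). Named were all members, plus the 10 genes closest to their median profile. The members and lists were chosen with earlier results of these data known. Pairs of arrays were compared by size (2-fold, brighter array at 64 or more), in 9 comparisons. limma 3.58.1 in R 4.3.3 was fitted with genotype and time, and with 4 cells for the interaction, on 11153 genes. The prior added 3.99 and 2.97 degrees of freedom. The number of arrays limits the precision. On simulated data, with 200 of 11153 genes changed, limma recovered 90% (genotype), 89% (hCG) and 4% (interaction) of 2-fold changes. At 4-fold it recovered 100%, 100% and 87%. Unchanged genes called in error numbered 11 (genotype), 21 (hCG) and 9 (interaction). The simulated noise was drawn for each gene on its own, so shared movement of genes was not simulated. The simulated genotype change was the same at all 3 times. The members' median difference between genotypes was 0.89, 0.32 and 0.01 (log2) at 0, 2.5 and 4 h. The recovered shares therefore do not give the power of the genotype fit for the members. Alternatives were the mean of all probe sets, cyclic loess, other floors and sizes, subtraction of each array's 10th percentile (values under 8 set to 8), the other genotype's baseline and, for genotype, fits without 1 time.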

Additional observations from a re-analysis of the deposited data

Results flagged for a closer look

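The genotype difference turned sign between 0 h and 4 h in 3 members that were at least 2-fold higher in the knockout at 0 h. Such a turn was common in the set, where 32 of 33 were higher in the knockout at 0 h and 16 lower at 4 h. Among those 16, Figla was lower at 0 h as well and did not turn. The log2 difference, knockout minus wild type, at 4 h minus the same at 0 h was -1.36 for Bmp15, -1.88 for Nlrp4e and -1.36 for Dppa3. Each rests on 4 single arrays, and this difference was not tested. For Bmp15 it holds on 1 probe set only: with the mean of its probe sets the knockout was 0.70 higher (log2) at 0 h and 0.02 higher at 4 h, with no turn of sign. In the limma model that joins 2.5 h and 4 h, the interaction was -0.93 ± 0.43 (SE; adjusted p = 0.552) for Bmp15, -1.65 ± 0.29 (adjusted p = 0.432) for Nlrp4e and -1.21 ± 0.28 (adjusted p = 0.535) for Dppa3.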

How the results depend on the processing

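No comparison has replicates, so no array could be left out of a pair, and an alternative counts as close to the reported value when a count is within 1.5 times or a median within the standard deviation over members. The additive fit already compares the genotypes within each time, so no further paired fit was made. At 1.5-fold in place of 2-fold, the members counted were 28, 3 and 1 (knockout higher at 0, 2.5 and 4 h), 21 and 16 (wild type lower at 2.5 and 4 h) and 1 (knockout, 4 h against 2.5 h). Cyclic loess gave 7 members higher in the knockout at 0 h, 0 lower in wild type at 4 h and 0 called for hCG by limma. Subtracting the 10th percentile gave 2 and 2 members lower in wild type at 2.5 h and 4 h. With the other genotype's 0 h array as baseline, wild type had 28 and 29 members lower (medians -1.60 and -1.49) and the knockout 0 and 1 (medians -0.33 and -0.55). Shares of all genes were not counted for these alternative counts by size. For hCG the mean of all probe sets gave 13 calls in limma and no floor gave 1, and for genotype the fit without the 4 h pair gave 3. Other counts and medians stayed within these limits and kept their direction, except that the 4 h genotype median changed sign with cyclic loess (0.01 to -0.14). Of single members' differences, 297 of 297 with cyclic loess and 293 with the mean of probe sets stayed within the spread over members, and the other 4 were Bmp15's. Leaving Cyp17a1 out of the theca sum and the second list's settings were chosen after seeing the data. The causes were not tested. Values near 64 have coarse steps and background, which limits Nlrp4e, Nlrp9b and the 3 members under the floor. Khdc1a was also near that level in wild type after hCG, at 88 and 97. Ybx2 lay higher, from 123 to 159.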

Other observations

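The list's members read only by probe sets that name several genes followed the same order. The Oas1d probe set, which also names Oas1e, another gene of the oligoadenylate synthetase family, measured 2533, 1349 and 1395 in wild type at 0, 2.5 and 4 h and 4637, 1784 and 1613 in the knockout. A probe set that names Oog1 with Pramel51 and Gm2042 measured 8014, 4826 and 4913 in wild type and 14249, 7095 and 6918 in the knockout. These 2 differed by 0.87 and 0.83 (log2) between genotypes at 0 h, inside the range of the 33 members. In the Oog1 family the knockout stayed higher after hCG, at 7095 against 4826 and 6918 against 4913.

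Of the second list, Kit and Gja4 belong to the exchange between oocyte and granulosa cells. Kit, the receptor for the granulosa signal KITL, measured 374, 259 and 278 in wild type and 643, 260 and 226 in the knockout. Its ligand Kitl went the other way, with 2702, 4738 and 3252 in wild type and 1846, 6095 and 5011 in the knockout. Gja4, the connexin of the oocyte's gap junctions, measured 678, 490 and 466, then 1127, 568 and 488.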
